A study of Mus musculus with 6 samples.

Results

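The 10 genes described here, which cause inherited neuropathy in humans when mutated but encode no structural protein of the compact myelin sheath, were followed in mouse sciatic nerve: Mtmr2, Sbf1, Sbf2, Fig4, Fgd4, Sh3tc2, Litaf, Ndrg1, Gdap1 and Mfn2. They were chosen by name for their known role, with earlier results of these data known, and all 10 were measured among 22180 genes. The nerves came from mice aged 10 months. Those of 3 Srebf-1c KO samples were compared with those of 3 wild-type littermate samples, each hybridised as whole-nerve RNA to 1 Affymetrix whole-transcript array. Srebf-1c is a transcription factor of fatty acid synthesis made by Srebf1, and mice without it are known to develop a peripheral neuropathy. Strain, sex and any treatment are not given in the labels, the mice are named only by genotype and age, and the samples are not stated to come from different animals, so the tests measure only how far these samples differ among themselves, which could be technical.

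The disease group these genes belong to is Charcot-Marie-Tooth disease, in which Schwann cell myelin or the axon degenerates. Most of the 10 genes are known from demyelinating forms. Mfn2 is the exception, since its human mutations cause mainly an axonal form, and those of Gdap1 cause forms of either kind, so the name demyelinating holds for the group only in part. Their proteins act on membrane traffic and organelles rather than as wrapping of the axon. Mtmr2, Sbf1, Sbf2 and Fig4 control phosphoinositides, the signalling lipids of endosomes. Fgd4 activates the small GTPase Cdc42, Sh3tc2 and Litaf sit on endosomes, Ndrg1 is an abundant cytoplasmic protein of myelinating Schwann cells, and Gdap1 and Mfn2 lie in the outer mitochondrial membrane.

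No change of these genes passed a limma test in the KO nerves. By limma with Benjamini-Hochberg adjustment over all genes, 0 of 10 passed an adjusted p of 0.05, against 0.00451% of all genes, which was 1 gene, Srebf1 itself. Also 0 of 10 had an unadjusted p under 0.05, against 5.83% of all genes, and 0 of 10 met the criterion of the study, an unadjusted p under 0.05 with at least 1.5-fold change, against 1.19%. Mean levels were higher in KO for 5 genes and lower for 5, the log2 fold changes ran from -0.37 to 0.25, and their median was 0.019, against -0.032 over all genes. Ignoring sign, the median size of the log2 fold change was 0.13 for these genes and 0.13 for all genes. The KO and wild-type arrays did not overlap for 3 of 10 genes, against 12.3% of all genes. Mtmr2 was the 1 gene with KO higher (4.08% of all genes), and Sbf1 and Litaf were the 2 with KO lower (8.21%).

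**Figure D1:**
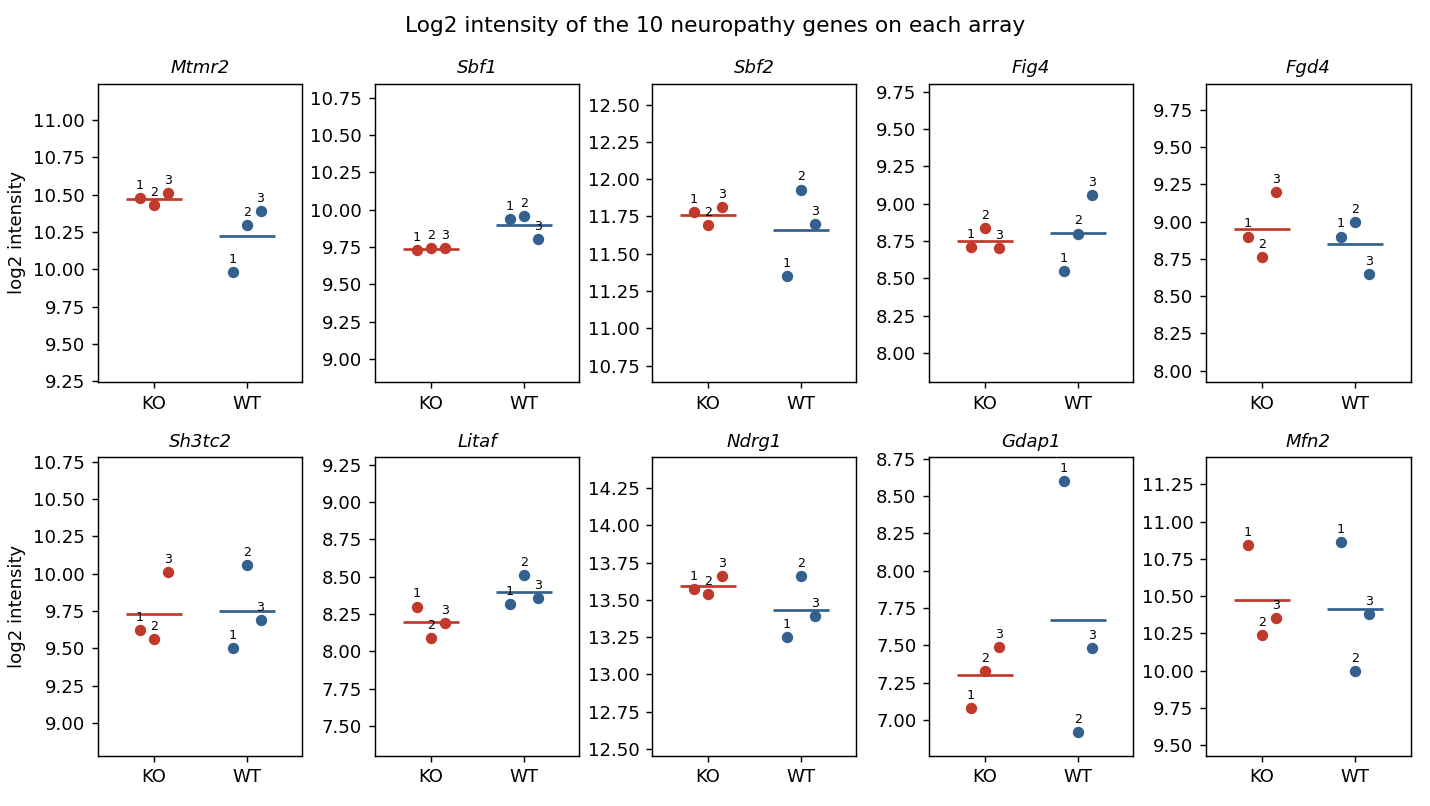
Log2 intensity (y axis, each panel spanning the same range of 2 log2 units) of each of the 10 genes on the 3 KO arrays (left, red) and the 3 wild-type arrays (right, blue). Numbers are replicate numbers and bars are means; the groups separate only for Mtmr2, Sbf1 and Litaf, and wild-type replicate 1 stands high for Gdap1 at 8.60.

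The targeted gene and the tissue were checked first. Srebf1 had log2 intensities of 8.11, 8.06 and 8.04 in KO nerves, against 9.53, 9.55 and 9.70 in wild-type nerves, and fell to 0.348 of the wild-type level (limma adjusted p = 0.0497; with each array left out in turn, fewer arrays remained and the adjusted p was 0.255 to 0.764). Of 12 Schwann cell markers 9 were measured, and their score, an average of log2 intensities centred on each gene's mean, ran from -0.11 to 0.091 in KO and from -0.14 to 0.23 in wild type. Other tissue varied more: the skeletal muscle score over 20 genes ran from -0.34 to 0.59 in KO and from -0.89 to 0.67 in wild type, the adipocyte score over 15 genes from -0.91 to 1.18 and from -0.73 to 1.31, and the neuron score over 6 genes from -0.46 to 0.36 and from -0.62 to 0.73. Fibroblast, perineurial, endothelial and macrophage scores also overlapped between the genotypes. In whole nerve, fewer cells of a type and less RNA per cell cannot be told apart.

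Srebf-1c binds DNA, so the promoters of the 3 genes whose groups separated are shown. These were picked from the same values, in which 12.3% of all genes separated, and none of the 3 passed the adjusted test. Any link of these genes to Srebf-1c was not tested. RefSeq promoters of GRCm38.p6 were found for 7 of the 10 genes: Mtmr2, Sbf1, Sbf2, Fig4, Fgd4, Litaf and Mfn2. The 250 bases before the start are given for Mtmr2 (chr9:13748929-13749178, plus strand, the most upstream of its 3 listed starts), Sbf1 (chr15:89315312-89315561, minus strand) and Litaf (chr16:10993122-10993371, minus strand), 5′ to 3′ in the direction of the gene. Capitals mark GGGCGG, the GC box bound by Sp1, and CCAAT, the box bound by NF-Y, on either strand, since both factors are known partners of SREBP proteins.
Mtmr2: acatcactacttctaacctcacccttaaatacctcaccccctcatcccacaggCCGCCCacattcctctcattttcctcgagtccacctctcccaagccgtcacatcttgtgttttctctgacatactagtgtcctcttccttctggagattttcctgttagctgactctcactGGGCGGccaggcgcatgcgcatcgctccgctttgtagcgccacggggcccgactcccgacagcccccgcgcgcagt
Sbf1: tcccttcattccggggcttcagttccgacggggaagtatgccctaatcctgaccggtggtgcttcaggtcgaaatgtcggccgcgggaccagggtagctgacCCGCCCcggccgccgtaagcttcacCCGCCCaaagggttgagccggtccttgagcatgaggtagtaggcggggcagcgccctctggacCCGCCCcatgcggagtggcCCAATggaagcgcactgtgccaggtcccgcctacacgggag
Litaf: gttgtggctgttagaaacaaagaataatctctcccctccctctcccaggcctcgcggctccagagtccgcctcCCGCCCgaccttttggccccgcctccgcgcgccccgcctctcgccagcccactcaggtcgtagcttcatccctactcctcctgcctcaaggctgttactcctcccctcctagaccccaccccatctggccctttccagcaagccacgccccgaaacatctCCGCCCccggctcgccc

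Searched on both strands over the same 250 bases, the sterol regulatory element TCACNCCAC was in none of 13 windows of the 7 genes, against 1.05% of 32851 windows of all genes, and the E-box CACGTG was likewise in 0 of 13, against 6.02%. The GC box was in 8 of the 13 windows, against 32.7% of all windows. All 7 genes had it in at least 1 window, but the share by gene was not counted over all genes. Some of the 13 windows belong to the same gene. The CCAAT box was in 4 windows, of Sbf1, Fig4 and Fgd4, against 33.8%. These are matches of letters in a short window and say nothing of binding.

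Among the phosphoinositide genes, the KO arrays of Mtmr2 lay above all wild-type arrays and those of its partner Sbf1 below them, with intervals of the fold change that included no difference. Mtmr2 encodes a phosphatase that removes a phosphate from endosomal phosphoinositides. Its log2 intensity was 10.48, 10.43 and 10.51 in KO nerves, against 9.98, 10.30 and 10.39 in wild-type nerves. The KO arrays lay close together and the lowest of them exceeded the highest wild-type array by 0.043. The log2 fold change was 0.25 ± 0.14 (SE, n = 3 each), or 1.19-fold with a 95% interval of 0.948 to 1.49 (limma adjusted p = 0.872). Wild-type replicate 1 was the lowest array, and without it the log2 fold change was 0.13. Each KO array had a higher median intensity over all probe sets than any wild-type array. With arrays at 1 median, the Mtmr2 groups still did not overlap and the log2 fold change was 0.21.

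Sbf1 and Sbf2 encode relatives of the myotubularin phosphatases that have no catalytic activity and bind Mtmr2. Sbf1 had log2 intensities of 9.73, 9.74 and 9.74 in KO nerves, against 9.94, 9.96 and 9.80 in wild-type nerves. The KO arrays were nearly equal, and its spread within groups was in the 3.0th percentile of all genes. KO over wild type gave -0.16 ± 0.11 (SE), or 0.896 of the wild-type level with a 95% interval of 0.749 to 1.07 (limma adjusted p = 0.892). After quantile normalization the Sbf1 values of the groups overlapped, while those of Mtmr2 and Litaf still did not. Across all alternative settings its adjusted p ran from 0.711 to 1.0, and the study's own test, which uses only the spread of the gene itself, put it under an unadjusted 0.05 but not past the adjusted threshold (adjusted p = 0.779).

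Sbf2 had log2 intensities of 11.78, 11.69 and 11.81 in KO nerves, against 11.35, 11.93 and 11.70 in wild-type nerves, which spanned all KO values. Its log2 fold change was 0.099 ± 0.16 (SE, limma adjusted p = 0.958). Without wild-type replicate 1, the lowest array, it was -0.057. Fig4 encodes a phosphoinositide phosphatase that works in a complex with the kinase Pikfyve and the scaffold Vac14. Fig4 had 8.71, 8.84 and 8.70 in KO nerves, against 8.55, 8.80 and 9.06 in wild-type nerves, and again the wild-type range enclosed the KO range. The log2 fold change was -0.05 ± 0.15 (SE, limma adjusted p = 0.978), with a value of 0.078 without wild-type replicate 3.

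The other 24 measured genes of this system, the remaining myotubularins and the lipid kinases and phosphatases, held 0 past the adjusted test in either direction and 0 with an unadjusted limma p under 0.05. Their median log2 fold change was -0.07, with 6 higher and 18 lower means, against 9556 higher and 12624 lower over all genes. The smallest p-values were those of Mtmr14, another myotubularin, at -0.29 ± 0.12 (SE), of Vac14 at -0.25 ± 0.13 and of Mtmr9, an inactive myotubularin, at 0.28 ± 0.16. Their limma adjusted p was 0.85, 0.867 and 0.872.

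**Figure D2:**
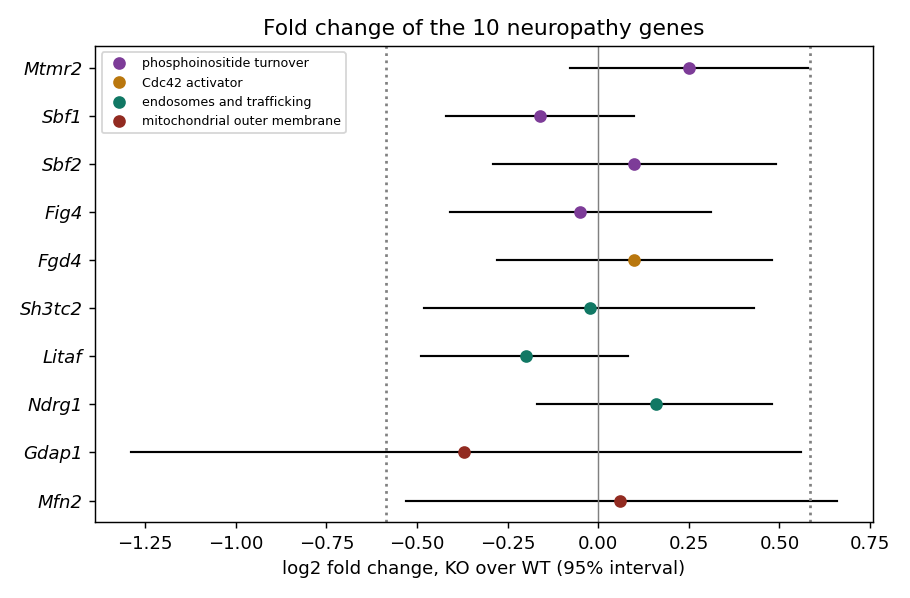
Log2 fold change of KO over wild type (x axis) for each of the 10 genes (rows), with 95% intervals from limma as lines and colours for the role of the protein. Dotted lines mark 1.5-fold in either direction; the intervals of 8 genes stay inside them, and that of Gdap1 reaches -1.29.

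Fgd4, which encodes the exchange factor frabin that activates Cdc42, varied as much within a genotype as between them. Its log2 intensity was 8.90, 8.76 and 9.20 in KO nerves, against 8.90, 9.0 and 8.65 in wild-type nerves. KO replicate 3 was the highest and wild-type replicate 3 the lowest array. The log2 fold change was 0.10 ± 0.16 (SE, limma adjusted p = 0.956), and it was -0.02 without KO replicate 3 and -0.00033 without wild-type replicate 3. Of 24 related genes of Cdc42-type GTPases and actin, 0 passed the adjusted test or had an unadjusted limma p under 0.05, and their median was 0.013. Cdc42bpb, a kinase bound by Cdc42, stood at -0.27 ± 0.13 (SE), Wasl, an activator of actin branching, at 0.30 ± 0.16, and Cdc42ep4, a Cdc42 effector, at -0.21 ± 0.13.

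Of the genes of endosomes and trafficking, Litaf was lower on every KO array and the others overlapped. Litaf encodes a small membrane protein of late endosomes and lysosomes that binds Nedd4-type ubiquitin ligases. Its log2 intensity was 8.30, 8.09 and 8.19 in KO nerves, against 8.32, 8.51 and 8.36 in wild-type nerves. KO replicate 1 lay only just under wild-type replicate 1. On the log2 scale the difference was -0.20 ± 0.12 (SE), or 0.868 of the wild-type level with a 95% interval of 0.713 to 1.06 (limma adjusted p = 0.877). With each array left out it stayed between -0.26 and -0.14.

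Sh3tc2 encodes an adaptor that binds the recycling GTPase Rab11 in Schwann cells. It had log2 intensities of 9.62, 9.56 and 10.01 in KO nerves, against 9.50, 10.06 and 9.69 in wild-type nerves. Each group held 1 high array, KO replicate 3 and wild-type replicate 2. On average they differed by a log2 fold change of -0.023 ± 0.19 (SE, limma adjusted p = 0.994), and the 95% interval of the ratio was 0.719 to 1.35. Its sign depended on the array left out, with values of -0.16 to 0.13.

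Ndrg1 had the brightest probe set of the 10, in the 99.9th percentile of genes. It had log2 intensities of 13.57, 13.54 and 13.66 in KO nerves, against 13.25, 13.66 and 13.39 in wild-type nerves. KO replicate 3 and wild-type replicate 2 were again high, and wild-type replicate 1 was the lowest. The log2 fold change was 0.16 ± 0.14 (SE, limma adjusted p = 0.906), with a 95% interval of the ratio of 0.888 to 1.40, and 0.063 without wild-type replicate 1. A second, dimmer Ndrg1 probe set had 10.61, 10.20 and 9.68 in KO nerves, against 9.68, 10.21 and 9.50 in wild-type nerves. It gave 0.37 ± 0.28 (SE), in the same direction, but the order of the KO arrays differed between the probe sets. The other 9 genes had 1 probe set each.

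Of 37 measured genes of endosomal and lysosomal sorting, 0 passed the adjusted test or had an unadjusted limma p under 0.05, and their median log2 fold change was -0.011. Chmp2a, of the machinery that buds vesicles into endosomes, stood at -0.25 ± 0.12 (SE), the endosomal tether Eea1 at -0.24 ± 0.12 and Rabep1, an effector of endosomal Rab proteins, at 0.25 ± 0.14. Among 8 relatives and partners of Ndrg1, Sh3tc2 and Litaf, 1 had an unadjusted limma p under 0.05, against 5.83% of all genes. This was Sgk1, the kinase known to phosphorylate Ndrg1. Sgk1 had log2 intensities of 10.70, 10.65 and 10.60 in KO nerves, against 9.90, 10.00 and 10.41 in wild-type nerves. All its KO arrays were the higher ones, as for 4.08% of all genes. Its log2 fold change was 0.55 ± 0.16 (SE), or 1.46-fold, and it did not pass over all genes (limma adjusted p = 0.85). Sgk2 stood at 0.27 ± 0.22, and Sh3tc1 at -0.15 ± 0.19.

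The genes of the mitochondrial outer membrane varied most between arrays of 1 genotype. Gdap1 encodes a protein tied to mitochondrial fission. It had log2 intensities of 7.08, 7.33 and 7.49 in KO nerves, against 8.60, 6.92 and 7.48 in wild-type nerves. Wild-type replicate 1 stood above all others and wild-type replicate 2 was the lowest. The spread within groups was in the 96.3th percentile of all genes, and the log2 fold change was -0.37 ± 0.39 (SE, limma adjusted p = 0.929). The 95% interval of the ratio was 0.408 to 1.47, the widest of the 10. Without wild-type replicate 1 the log2 fold change was 0.10, and without wild-type replicate 2 it was -0.74.

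Gdap1 is known to be strong in neurons, and 4 of 6 neuron markers, Rbfox3, Snap25, Syt1 and Tubb3, were also highest on wild-type replicate 1. Uchl1 and Elavl4 were not: Uchl1 had a log2 intensity of 9.59 on that array and its highest value, 9.76, on KO replicate 3, and Elavl4 had its highest, 6.58, on KO replicate 2. The neuron score was -0.46, 0.36 and 0.36 in KO nerves, against 0.73, -0.36 and -0.62 in wild-type nerves. Syt1, a synaptic vesicle protein, had log2 intensities of 8.12, 9.72 and 10.04 in KO nerves, against 10.69, 8.33 and 7.84 in wild-type nerves. The arrays did not come in the same order for both genes: Gdap1 was lowest on wild-type replicate 2 and Syt1 on wild-type replicate 3. No marker of the neuron list separated the genotypes, and the summed intensity of the list ran from 2320 to 4714 in KO and from 1931 to 6404 in wild type. With the neuron score in the fit, which was added once the data had been seen, the log2 fold change of Gdap1 was -0.51 ± 0.26 (SE, limma adjusted p = 0.832). With the muscle score in the fit instead, the Gdap1 value was -0.50 ± 0.31 (SE). It was -0.29 ± 0.33 with the Schwann cell score and -0.42 ± 0.40 with the adipocyte score. The muscle score was also highest on wild-type replicate 1, at 0.67, and lowest on wild-type replicate 2, at -0.89, as Gdap1 was. The part of neuronal or muscle RNA in the Gdap1 values was not tested.

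Mfn2 encodes a GTPase that fuses mitochondria. Its log2 intensity was 10.84, 10.24 and 10.35 in KO nerves, against 10.86, 10.00 and 10.38 in wild-type nerves. Replicate 1 of either genotype was high and wild-type replicate 2 was low, and the log2 fold change was 0.061 ± 0.25 (SE, limma adjusted p = 0.987). The skeletal muscle score was also highest on replicate 1 of either genotype and lowest on wild-type replicate 2, at 0.59, -0.34 and 0.037 in KO nerves, against 0.67, -0.89 and -0.071 in wild-type nerves. None of the 20 muscle markers separated the genotypes, and their summed intensity ran from 92793 to 154460 in KO and from 62513 to 164397 in wild type. With the muscle score in the fit the log2 fold change of Mfn2 was -0.049 with a smaller SE of 0.11 (limma adjusted p = 0.95). The SE was also smaller, 0.13, with the replicate number as a block. It was 0.25, 0.26 and 0.27 with the adipocyte, Schwann cell and neuron scores. How much of the Mfn2 signal came from muscle was not tested.

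**Figure D3:**
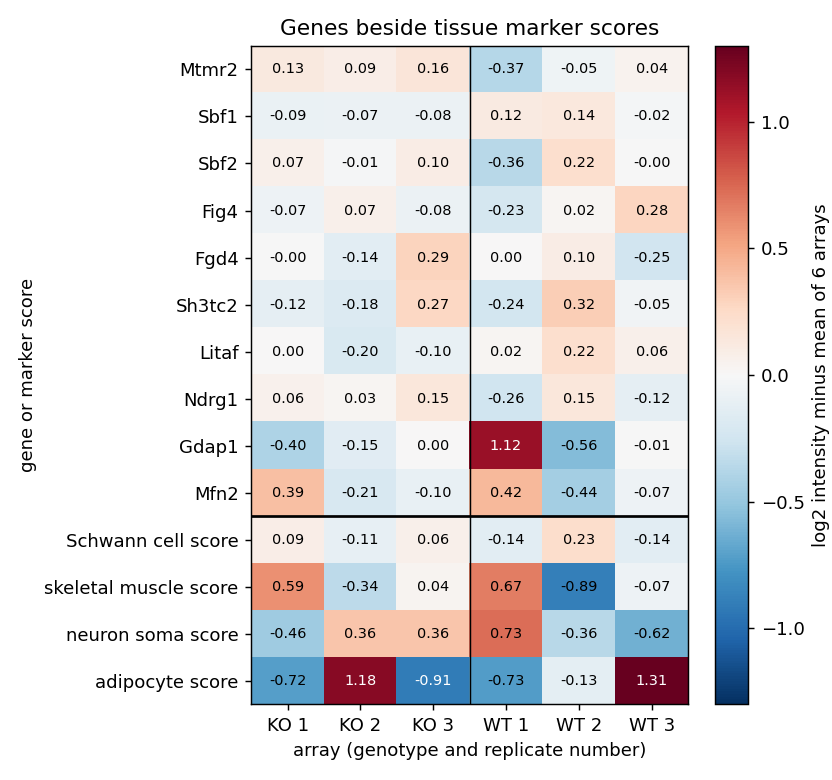
Log2 intensity minus the mean of 6 arrays (colour and printed value) for the 10 genes (upper rows) and for 4 marker scores (lower rows) on the KO arrays (left 3 columns) and wild-type arrays (right 3 columns). Gdap1 reaches 1.12 on wild-type replicate 1, and both Mfn2 and the muscle score are highest on KO and wild-type replicate 1 and lowest on wild-type replicate 2, while KO replicate 3 and wild-type replicate 3 come in the opposite order.

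Of 26 measured genes of mitochondrial fusion, fission and transport, 0 passed the adjusted test or had an unadjusted limma p under 0.05, and their median log2 fold change was 0.0053. The inner membrane protease gene Spg7 stood at -0.28 ± 0.12 (SE), Rhot1, which couples mitochondria to motors, at 0.16 ± 0.13 and the fission GTPase gene Dnm1l at 0.16 ± 0.14.

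Further neuropathy genes were counted in the same way. Of 15 measured genes listed for myelin and its neuropathies, 1 had an unadjusted limma p under 0.05, against 5.83% of all genes. This was Egr2, the transcription factor that drives myelination. Egr2 had log2 intensities of 10.32, 10.14 and 10.22 in KO nerves, against 9.63, 9.93 and 9.64 in wild-type nerves. All its KO arrays were the higher ones, as for 4.08% of all genes. Its log2 fold change was 0.50 ± 0.13 (SE), or 1.41-fold (limma adjusted p = 0.85). The compact myelin gene Pmp22, at 0.066 ± 0.12 (SE), the gap junction gene Gjb1, at -0.036 ± 0.22, and the lipid-binding myelin gene Pmp2, at 0.18 ± 0.18, did not pass. The sign of Pmp22 turned after quantile normalization (-0.095). Fblim1, at -0.26 ± 0.24, did not pass either, and it was on the list without being an established myelin or neuropathy gene. The list median was -0.027.

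Of 31 measured genes of axonal neuropathy, 1 had an unadjusted limma p under 0.05, against 5.83% of all genes. This was Dnajb2, a neuronal chaperone gene. Dnajb2 had log2 intensities of 9.04, 8.81 and 8.95 in KO nerves, against 9.33, 9.36 and 9.21 in wild-type nerves. All its KO arrays were the lower ones, as for 8.21% of all genes. Its log2 fold change was -0.36 ± 0.12 (SE), or 0.777 of the wild-type level (limma adjusted p = 0.85). The neurofilament gene Nefh stood at 0.33 ± 0.15 and the glycyl-tRNA synthetase gene Gars at -0.34 ± 0.15. The list held 9 higher and 22 lower means, with a median of -0.13. Over all genes there were 9556 higher and 12624 lower means, with a median of -0.032. Over the 165 different genes of all 7 lists, 0 passed the adjusted test and 3 had an unadjusted limma p under 0.05, namely Sgk1 and Egr2, higher in KO, and Dnajb2, lower in KO. These were 1.82% of the listed genes, against 5.83% of all genes. The count depended on the processing: it was 11 with array weights and 9 with arrays at 1 median. With the muscle score in the fit it was 7, and with the neuron score 6. It was 8, 7, 6 and 5 without wild-type replicate 2, wild-type replicate 1, wild-type replicate 3 and KO replicate 2. The share of all genes was not counted under these alternatives, so these counts have no background beside them.

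**Figure D4:**
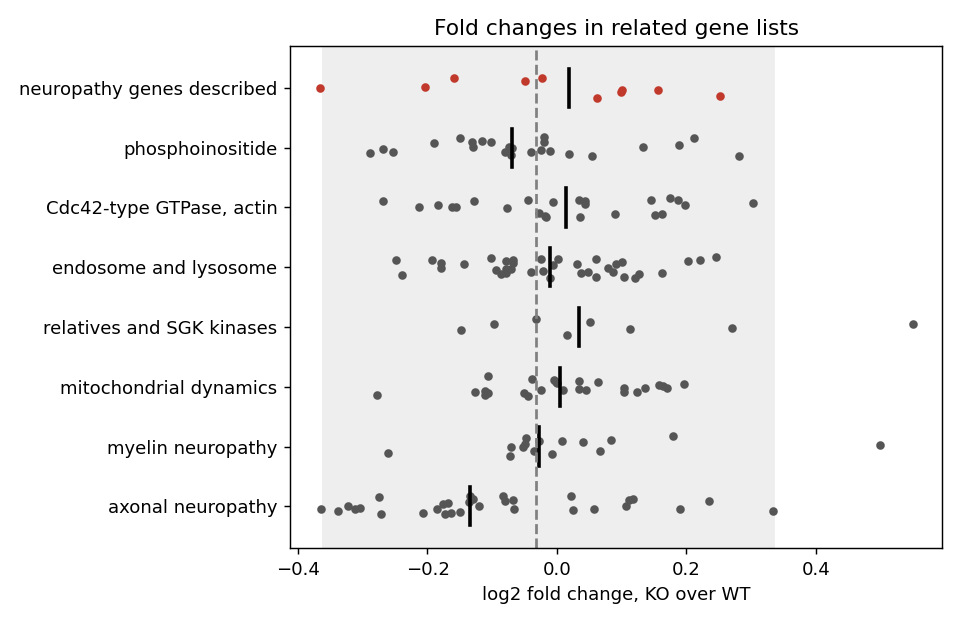
Log2 fold change of KO over wild type (x axis) of each measured gene (points, spread vertically for legibility) in the 10 neuropathy genes described (red) and in 7 related lists (grey), with the list median as a black bar. The grey band spans the 5th to 95th percentile of all genes, -0.36 to 0.34, and the dashed line is their median; Sgk1 and Egr2 lie above the band at 0.55 and 0.50.

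The intervals show what these arrays could and could not separate. For 9 of the 10 genes the 95% interval of the fold change excluded a 2-fold difference in either direction, and for 8 of them it also excluded a 1.5-fold difference. Gdap1 was the gene for which a fall of more than 2-fold lay inside the interval, and for Mfn2 a 1.5-fold rise did. Smaller differences, such as those of Mtmr2, Sbf1 and Litaf, had limma intervals that included no difference. For Sbf1, the study's own test, which uses only the spread of the gene itself, gave an unadjusted p under 0.05. Sbf1 did not pass the adjusted threshold in that test. All 6 values obtained with 1 array left out had the same sign for Mtmr2, Sbf1, Litaf and Ndrg1, and the sign changed in at least 1 of them for Gdap1, Sh3tc2, Sbf2, Fgd4, Fig4 and Mfn2.

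**Figure D5:**
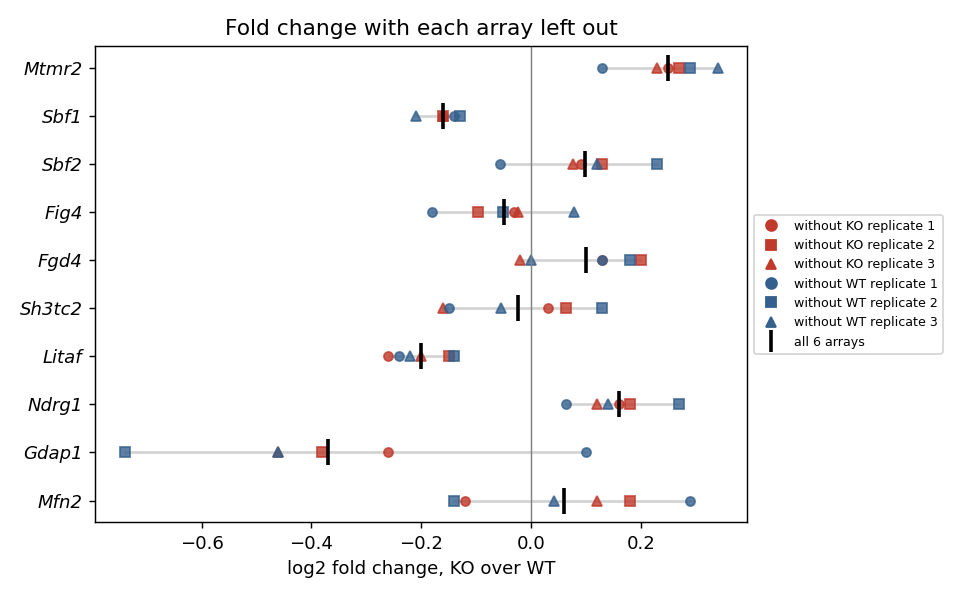
Log2 fold change of KO over wild type (x axis) of each gene (rows) with all 6 arrays (black bar) and with 1 array left out (symbols by array, red for KO, blue for wild type). Gdap1 moved most, between -0.74 without wild-type replicate 2 and 0.10 without wild-type replicate 1, while Sbf1 stayed between -0.21 and -0.13.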

How the data were processed

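The authors deposited 1 intensity per probe set and array. As the series' design text states, RMA was used, which corrects background, normalizes and summarises the probes of a set, and the data were mainly handled in TAC and Partek Genomic Suite. The values, 3.67 to 23737.99, show a linear scale. The build is mm8, per the submitters' processing notes, and no software version is stated in the labels. KO samples are called wild type in their source field, so groups follow the titles, which match the genotype field.

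Log2 was taken with no pseudocount and no filter on dim genes. Of 41077 probe sets, 23521 carried 1 gene symbol, 1814 several and 15742 none. Where a gene had several, the one with the highest mean over 6 arrays was used, which left 22180 genes. All 10 genes described were matched by symbol, with probe sets in the 51.0th to 99.9th percentile of mean intensity. Arrays correlated at 0.9694 to 0.9855, and at most 0.117% of values were identical in a pair. Median intensity was 121.2, 118.9 and 122.6 on the KO arrays and 118.0, 117.6 and 115.5 on the wild-type arrays. With arrays at 1 median, Mtmr2, Sbf1 and Litaf still separated, as did 15.1% of all genes. After quantile normalization that share was 12.6%. The model (limma 3.58.1, lmFit and eBayes, R 4.3.3) had genotype alone, KO over wild type, and its two-sided p-values were adjusted by Benjamini-Hochberg over all genes. The criterion of the study was applied to the moderated p. The procedure was run on simulated data with noise independent between genes and changes of at least 1.5-fold. That run cannot show whether smaller changes, such as those of the 10 genes, would be detected. Python 3.11.15, pandas 2.3.3, numpy 2.4.6 and matplotlib 3.10.9 served for joins and plots.

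The genes and lists were chosen with earlier results of these data known. Named were all 10 genes, Srebf1, up to 3 genes of each related list with the smallest p, any past the adjusted test, and Pmp22, Gjb1 and Egr2. The neuron markers were named, and Syt1 was picked, after their values were seen. Alternatives were a replicate block, array weights, the study's ANOVA, an intensity trend and robust prior, omission of the dimmest 25% or 50% of genes, quantile normalization, arrays at 1 median, the mean of probe sets, the adipocyte or muscle score as a covariate, a fold limit of 2, an adjusted p limit of 0.10 and leaving out each array. The Schwann cell and neuron scores as covariates were added after seeing the data, as were the alternatives for the list counts.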

Additional observations from a re-analysis of the deposited data

How the results depend on the processing

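Under 19 alternatives the 10 genes gave 190 log2 fold changes, of which 176 kept their direction, and 0 passed the adjusted limma test. The count of 176 includes values that could not turn. The replicate block, the ANOVA, the intensity trend and the omission of dim genes left each fold change as it was. The mean of probe sets did so for genes with 1 probe set. The count of genes with an unadjusted p under 0.05 was 0 in 18 alternatives and 1 with the ANOVA (Sbf1), and 0 met the study's criterion in any. The sign turned for Mfn2 with the muscle score (-0.049) and for Sh3tc2 with array weights (0.061), quantile normalization (0.0078) or the muscle score (0.027). With 1 array left out the range was -0.74 to 0.10 for Gdap1, -0.16 to 0.13 for Sh3tc2, -0.057 to 0.23 for Sbf2, -0.02 to 0.20 for Fgd4, -0.18 to 0.078 for Fig4 and -0.14 to 0.29 for Mfn2. Among list genes, Gjb1 was 0.11 with array weights, Pmp22 -0.095 after quantile normalization and Sh3tc1 0.13 as the mean of its probe sets, and with 1 array left out the range was -0.21 to 0.16 for Gjb1, -0.0082 to 0.28 for Pmp2 and -0.31 to 0.022 for Sh3tc1. The cause was not tested.

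The Srebf1 log2 fold change lost the adjusted test, at about the same size, with the replicate block or the Schwann cell score (-1.52), the ANOVA (-1.52), arrays at 1 median (-1.57), the adipocyte or neuron score (-1.51), the muscle score (-1.53) and each array left out (-1.56 to -1.47). Genes meeting the study's criterion numbered 265, and 34 at a fold limit of 2, 138 with the ANOVA, 150 and 89 without the dimmest 25% and 50%, and 231 to 552 with 1 array left out (552 without KO replicate 2, 488 without wild-type replicate 3 and 435 without wild-type replicate 1). List genes with an unadjusted p under 0.05 numbered 3, and 7 with the ANOVA or the muscle score, 5 with an intensity trend and 11 with array weights. They numbered 6 without the dimmest 50% or with the neuron score and 9 with arrays at 1 median. With 1 array left out they numbered 3 to 8 (8, 7, 6 and 5 without wild-type replicates 2, 1 and 3 and KO replicate 2). The matching share of all genes was not counted under these alternatives.

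Deviations of same-numbered arrays from their group means correlated at 0.12, 0.01 and -0.23. Those of differently numbered arrays correlated at -0.26 to 0.28. With 3 arrays a group, these values cannot decide whether the replicate numbers pair the samples. With the number as a block, Mtmr2 stood at 0.25 (adjusted p = 0.817), 3 list genes had an unadjusted p under 0.05 and 288 genes met the criterion. Precision is limited by 3 arrays a group.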
